A study of Mus musculus with 8 samples.

Results

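Signaling through Toll-like receptor 4 (TLR4) depends on a small set of proteins around the receptor, and 10 genes that encode them were described here across the 4 groups of an RNA-seq experiment on PRDX1 and RANKL. The genes were the co-receptors Cd14 and Ly96, the adaptors Myd88, Tirap, Ticam1 and Ticam2, and the kinases Irak4, Irak1, Irak2 and Irak3. They were chosen by name, and all 10 were present among the 25124 gene entries of the expression table and above the filter on low values. Tlr4 itself was given beside them because they serve it.

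The cells were osteoclast precursors grown from mouse bone marrow, which the labels also call bone marrow-derived macrophages. All cultures received M-CSF at 30 ng/mL, the growth factor that keeps these cells alive. The group no PRDX1 + no RANKL received nothing else, PRDX1 + no RANKL received recombinant PRDX1 at 200 nM, no PRDX1 + RANKL received RANKL at 100 ng/mL, and PRDX1 + RANKL received both. RNA was taken after 48 h, with 2 libraries in each group and 8 in all. RANKL is the cytokine that turns these precursors into bone-resorbing osteoclasts, and PRDX1 is a peroxidase that acts on cells as a danger signal when it is released. The labels gave the donors as C57BL/6 mice aged 6 to 8 weeks, whereas the study's cell culture methods named male ICR mice, so the strain was not settled. The PRDX1 was a His-tagged protein made in Escherichia coli and passed over an endotoxin removal resin. A control with a mock protein preparation was not among the 4 groups, so PRDX1 and anything carried with it cannot be told apart in these libraries. The study reported that heat-inactivated PRDX1 did not inhibit osteoclast formation. That was a count of stained cells, and no such culture was sequenced among these groups.

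TLR4 recognises lipopolysaccharide (LPS) and several danger signals of the host. CD14 hands LPS to MD-2, the product of Ly96, which sits in the ectodomain of TLR4. At the plasma membrane TIRAP brings MYD88 to the receptor, and MYD88 assembles IRAK4, IRAK1 and IRAK2 into a complex that leads to NF-kB. After uptake of the receptor, TRAM, the product of Ticam2, brings in TRIF, the product of Ticam1, which leads to interferon regulatory factors. IRAK3, also called IRAK-M, is found mainly in monocytes and macrophages and restrains this signaling.

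Levels were deposited as FPKM (fragments scaled by transcript length and library size), so a comparison between genes rests on the deposited transcript lengths. These lay within 2.19% of the exons of the paired GENCODE M21 transcript for 9 of the members, but were about 104% longer for Tirap and 93.4% longer for Tlr4. Changes were taken on the log2(FPKM + 1) scale, where the change of a gene with a low level is understated. A gene was said to have risen or fallen where the adjusted p from limma (Benjamini-Hochberg over the 11700 genes tested) was under 0.05, and it was called where it also changed by at least 1.5-fold. No source stated whether the libraries of a group came from separate animals, so the p-values measure the spread between these libraries, which may be technical. The libraries held 27284677 to 46171637 reads, of which 24542578 to 41712958 fell on genes. The members were covered by 301 reads (Ly96 in a no PRDX1 + RANKL library) to 31375 reads (Cd14 in a no PRDX1 + no RANKL library).

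The sequence before the start site of a member was taken from RefSeq (GRCm38.p6), whose table held 7 of the 10 members, and 4 of them are shown: the kinase gene with the widest change, the kinase gene that rose with PRDX1 in both settings, and 2 genes that changed little. Each is the 250 bases before the start of the deposited transcript, 5′ to 3′ on the strand of the gene. Capitals mark matches to any of 6 motifs searched on both strands. These were the kappaB motif, the AP-1 site TGANTCA, an interferon response element, the PU.1 site GAGGAAGT, the GC box GGGCGG and the cyclic AMP response element TGACGTCA.
Irak3, chr10:120202131-120202380, minus strand: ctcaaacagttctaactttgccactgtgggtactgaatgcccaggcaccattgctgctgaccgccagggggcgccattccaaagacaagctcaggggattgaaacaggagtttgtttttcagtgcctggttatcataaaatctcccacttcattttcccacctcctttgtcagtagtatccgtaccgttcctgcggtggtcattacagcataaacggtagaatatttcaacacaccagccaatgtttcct
Irak2, chr6:113638217-113638466, plus strand: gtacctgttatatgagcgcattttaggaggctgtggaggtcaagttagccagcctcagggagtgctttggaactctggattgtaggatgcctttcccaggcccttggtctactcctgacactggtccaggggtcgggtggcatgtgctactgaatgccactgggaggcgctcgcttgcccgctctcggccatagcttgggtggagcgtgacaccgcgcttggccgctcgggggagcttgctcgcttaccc
Irak1, chrX:74023922-74024171, minus strand: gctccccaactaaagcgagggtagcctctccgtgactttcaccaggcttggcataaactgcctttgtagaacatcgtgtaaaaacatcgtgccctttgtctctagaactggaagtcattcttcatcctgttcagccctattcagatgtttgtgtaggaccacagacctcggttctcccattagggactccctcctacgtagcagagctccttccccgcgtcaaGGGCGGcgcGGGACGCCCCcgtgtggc
Myd88, chr9:119340019-119340268, minus strand: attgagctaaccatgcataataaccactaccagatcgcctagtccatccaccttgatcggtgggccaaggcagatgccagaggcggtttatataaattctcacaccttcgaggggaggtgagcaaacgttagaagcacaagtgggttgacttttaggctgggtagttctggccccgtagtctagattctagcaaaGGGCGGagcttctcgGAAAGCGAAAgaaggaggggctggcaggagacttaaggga

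The windows of Irak3 and Irak2 held no match to the 6 motifs. The window of Irak1 held a GC box and, 9 to 18 bases before the start, a kappaB match that reads on both strands. The window of Myd88 held a GC box and an interferon response element match 31 to 40 bases before the start. Among 32851 promoter windows of the same length, 7.25% held a kappaB match, 2.98% the interferon response element and 32.7% a GC box, while 6.75% held the AP-1 site, 2.44% the PU.1 site and 1.55% the cyclic AMP response element. Of the other windows at a deposited start, those of Tirap and Irak4 held 1 GC box each and that of Ticam1 held 3. A second RefSeq start of Irak3, 533 bases into the gene, had 2 GC boxes before it. The letters describe these windows only and say nothing on whether a factor was bound.

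**Figure D1:**
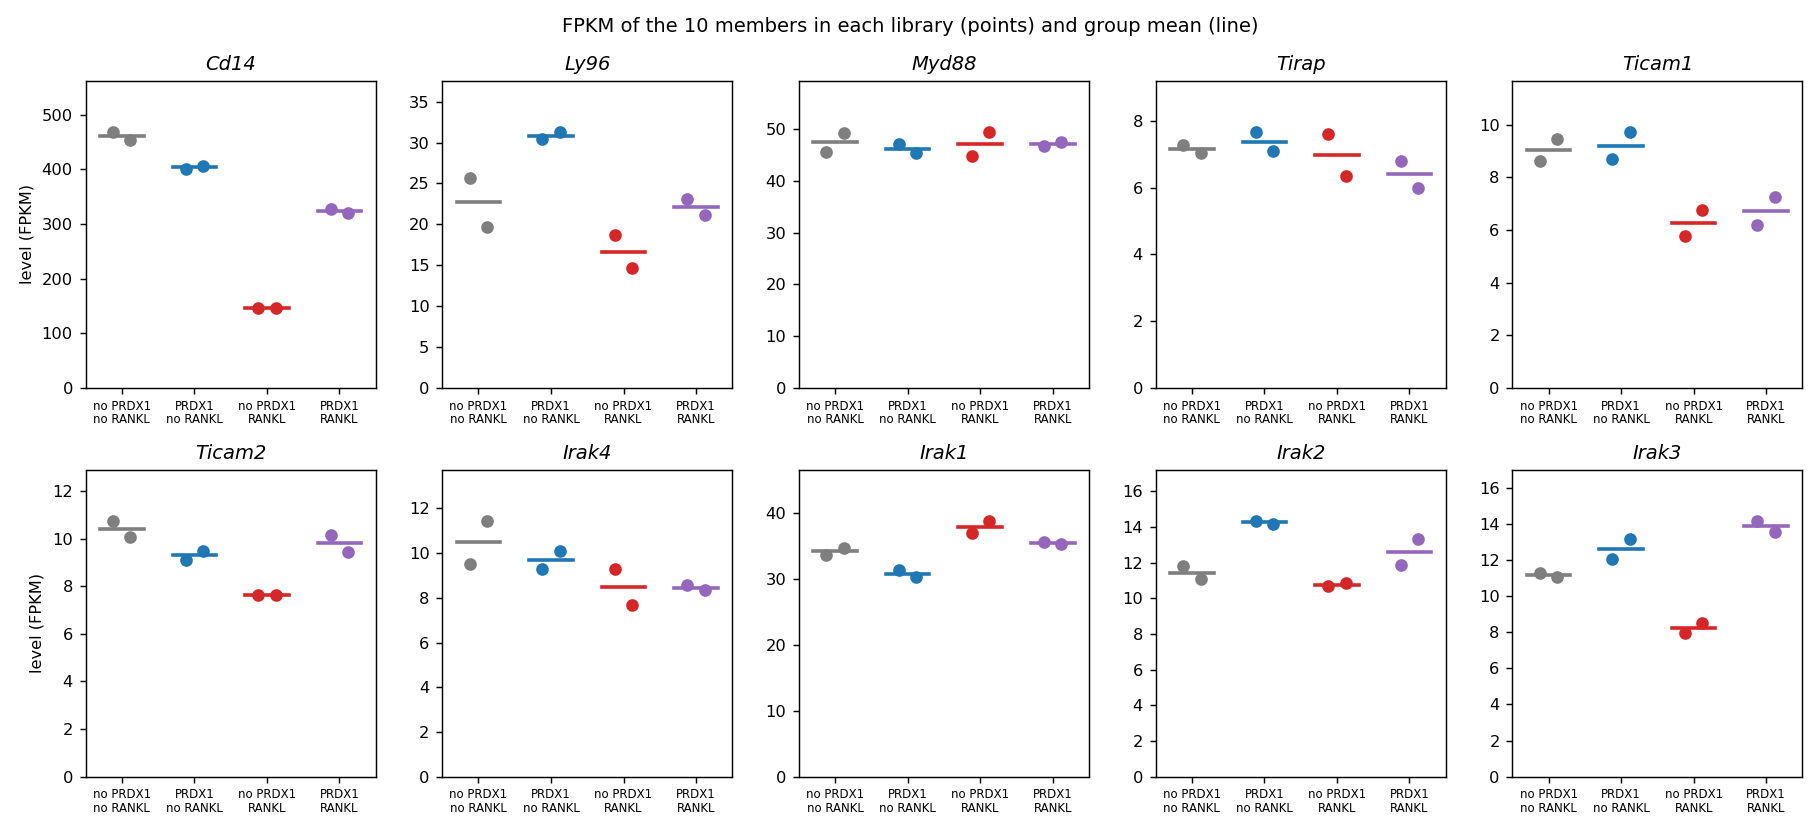
Level of each member in FPKM (vertical axes, each from 0) in the 4 groups (horizontal axis). Points are the 2 libraries of a group and lines are group means: Cd14 stood at 146 and 147 FPKM in the no PRDX1 + RANKL libraries against 320 to 468 FPKM in the others, Irak3 and Ticam2 were lowest in that same group, and Myd88 stayed between 44.7 and 49.4 FPKM throughout.

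The co-receptor Cd14 (NM_009841, chr18:36725064-36726815, minus strand, mm10) was the most abundant member by a wide margin and changed the most. Its level was 468 and 453 FPKM with no PRDX1 + no RANKL, 401 and 406 FPKM with PRDX1 + no RANKL, 146 and 147 FPKM with no PRDX1 + RANKL, and 327 and 320 FPKM with PRDX1 + RANKL. No 2 groups overlapped. The RANKL libraries without PRDX1 were far below the rest, and those with both agents lay nearer to the libraries without RANKL.

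RANKL alone lowered Cd14 by 1.65 on the log2 scale (SE 0.039, adjusted p = 4.40e-10 in limma), to 0.32 of the control level. In the presence of PRDX1 the level with RANKL was 0.80 of that without it (log2 fold change -0.32, SE 0.039, limma adjusted p = 1.50e-04). Adding PRDX1 to RANKL raised Cd14 by 1.14 on the log2 scale (SE 0.039, limma adjusted p = 2.02e-08), or 2.20-fold, a change larger in size than that of 97.5% of the genes tested. Without RANKL, PRDX1 moved Cd14 the other way, with a fall of 0.19 on the log2 scale (SE 0.039, limma adjusted p = 0.00520) that did not reach 1.5-fold. The difference between the PRDX1 effects with and without RANKL was 1.33 on the log2 scale (SE 0.055, limma adjusted p = 3.46e-07 for the interaction).

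MD-2, the product of Ly96 (NM_016923, chr1:16688456-16709605, plus strand), is the LPS-binding partner of TLR4. Its level was 25.7 and 19.7 FPKM with no PRDX1 + no RANKL, 30.4 and 31.3 FPKM with PRDX1 + no RANKL, 18.7 and 14.6 FPKM with no PRDX1 + RANKL, and 23.1 and 21.1 FPKM with PRDX1 + RANKL. The PRDX1 libraries stood above their partners without PRDX1 in each setting, and the control libraries were far apart and enclosed those with both agents.

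Ly96 rose with PRDX1 by 0.44 on the log2 scale without RANKL (SE 0.127, limma adjusted p = 0.0273) and by 0.40 with RANKL (SE 0.127, limma adjusted p = 0.0301), and the 2 effects differed by -0.04 (95% interval -0.44 to 0.36). RANKL lowered it by 0.42 without PRDX1 (limma adjusted p = 0.0159) and by 0.46 with PRDX1 (limma adjusted p = 0.0157). All 4 changes stayed under 1.5-fold, but when 1 library was left out Ly96 was called higher with PRDX1 in the absence of RANKL (0.62 without no PRDX1 + no RANKL replicate 1) and lower with RANKL alone (-0.61 when no PRDX1 + no RANKL replicate 2 was omitted, -0.59 when replicate 1 of no PRDX1 + RANKL was). With 301 to 658 reads a library, Ly96 had the fewest reads of the members, and each of these 4 results missed the threshold after some libraries were left out. The limma adjusted p for PRDX1 without RANKL was 0.0871 to 0.191 without no PRDX1 + no RANKL replicate 2 or either PRDX1 + no RANKL library, and that for PRDX1 with RANKL was 0.0574 to 0.196 without no PRDX1 + RANKL replicate 2 or either PRDX1 + RANKL library. For RANKL without PRDX1 it was 0.126 to 0.143 without no PRDX1 + no RANKL replicate 1 or no PRDX1 + RANKL replicate 2, and for RANKL with PRDX1 it was 0.0544 to 0.0933 without either PRDX1 + no RANKL library or PRDX1 + RANKL replicate 2. With no filter on low values all 4 missed it (limma adjusted p = 0.0677 to 0.107), and without the intensity trend both PRDX1 results did (0.0550 to 0.0565).

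Tlr4 (NM_021297, chr4:66827551-66846581, plus strand), the receptor, went the same way as Cd14 over a narrower range. Its level was 24.4 and 23.2 FPKM in the control group, 21.2 and 22.1 FPKM with PRDX1, 16.7 and 14.2 FPKM with RANKL, and 20.6 and 19.4 FPKM with both. RANKL alone lowered it by 0.60 on the log2 scale (SE 0.078, limma adjusted p = 9.05e-05), and PRDX1 raised it by 0.36 in the presence of RANKL (SE 0.078, limma adjusted p = 0.00452). The ratios to Tlr4 rest on its deposited length of 7886 bases, where the exons of the paired GENCODE M21 transcript hold 4077 bases, so their size depends on the transcript used and their order over the libraries does not. The ratio of Cd14 to Tlr4, both in FPKM, was 19.2 and 19.6 in the control libraries and 8.77 and 10.3 in the no PRDX1 + RANKL libraries. It was 15.9 and 16.5 with both agents. The ratio of Ly96 to Tlr4 ran from 0.849 to 1.44 over the 8 libraries, with both PRDX1 + no RANKL libraries at 1.41 and 1.44 on top.

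**Figure D2:**
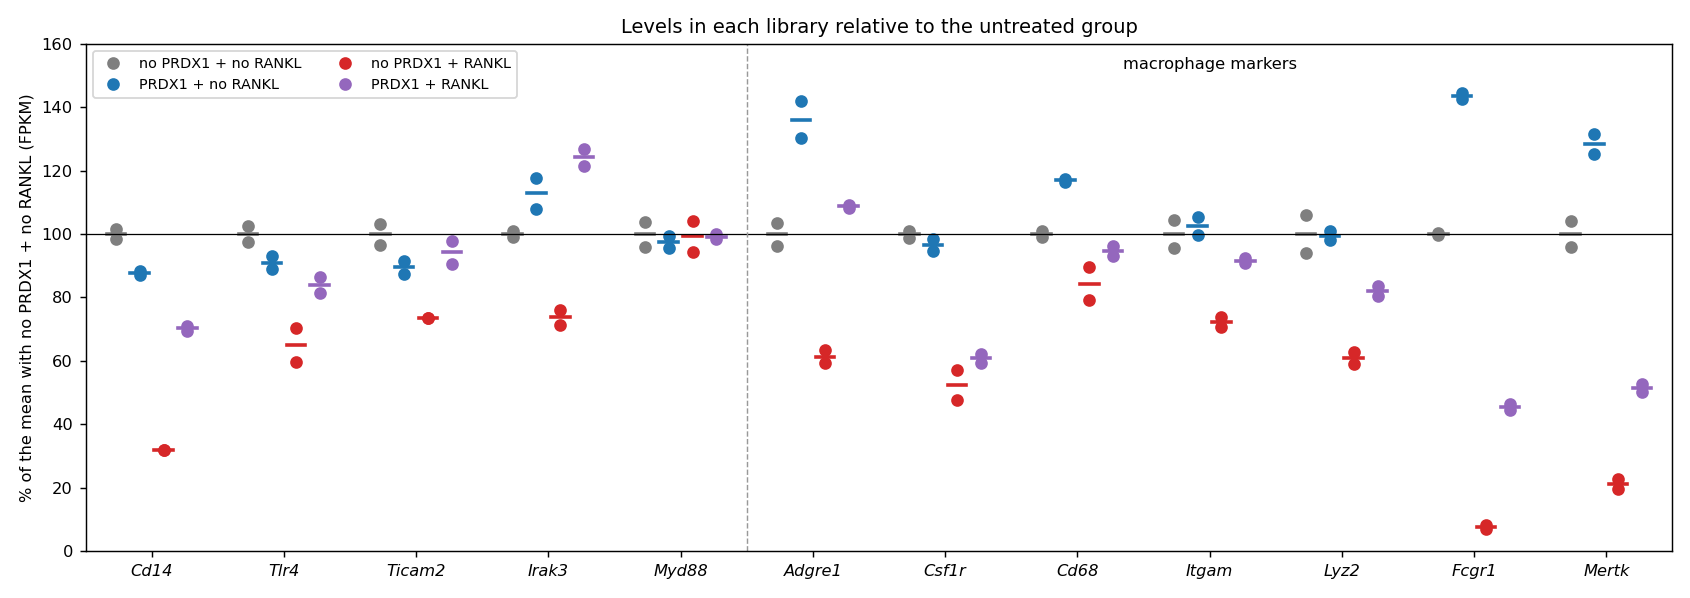
Level in each library as a percentage of the mean of the no PRDX1 + no RANKL group (vertical axis, FPKM) for Cd14, Tlr4, Ticam2, Irak3, Myd88 and 7 macrophage markers (right of the dashed line). Points are libraries and short lines are group means: with RANKL alone Cd14 stood at 31.8% in both libraries and the macrophage markers had means from 7.53% (Fcgr1) to 84.4% (Cd68), while Myd88 stayed between 94.3% and 104%.

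MyD88 is the adaptor shared by most Toll-like receptors and by the receptors of the IL-1 family. Myd88 (NM_010851, chr9:119335934-119340018, minus strand) was the most abundant adaptor and the steadiest member. Its level was 45.5 and 49.3 FPKM with no PRDX1 + no RANKL, 47.1 and 45.3 FPKM with PRDX1 + no RANKL, 44.7 and 49.4 FPKM with no PRDX1 + RANKL, and 46.7 and 47.4 FPKM with PRDX1 + RANKL. All groups overlapped. In the 4 comparisons its log2 fold change lay between -0.04 and 0.03, with 95% intervals that together spanned -0.17 to 0.16, so that a change of more than 1.13-fold lay outside them. Limma gave adjusted p-values from 0.719 to 0.989 for these comparisons.

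TIRAP, also called MAL, bridges TLR4 and MyD88 at the membrane. Tirap (NM_001177847, chr9:35184391-35199905, minus strand) had the lowest mean FPKM of the members, at 5.99 to 7.66 FPKM over the 8 libraries. That place rests on the deposited transcript length of 4668 bases, where the exons of the transcript paired with it in the GENCODE M21 annotation hold 2287 bases. If all its reads lay in those exons, its FPKM on the shorter length would be 12.2 to 15.6 and its place among the members would change, while ratios between libraries would not. The lowest library was of the PRDX1 + RANKL group and the highest of the PRDX1 + no RANKL group, and neighbouring groups overlapped. Its log2 fold changes ran from -0.18 to 0.04, limma adjusted p-values from 0.154 to 0.818, and the 95% intervals from -0.39 to 0.25. Changes of up to 1.31-fold lay within these intervals.

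TRIF is the adaptor of the branch that leads to interferon. Its gene Ticam1 (NM_174989, chr17:56269462-56276767, minus strand) stood at 8.60 and 9.43 FPKM with no PRDX1 + no RANKL, 8.68 and 9.71 FPKM with PRDX1 + no RANKL, 5.76 and 6.76 FPKM with no PRDX1 + RANKL, and 6.20 and 7.25 FPKM with PRDX1 + RANKL. The 4 libraries with RANKL were all below the 4 without it, and within each setting the groups with and without PRDX1 overlapped. Ticam1 fell with RANKL by 0.47 on the log2 scale without PRDX1 (SE 0.0998, limma adjusted p = 0.00240) and by 0.40 with PRDX1 (SE 0.0998, limma adjusted p = 0.00961), both under 1.5-fold. The log2 difference with PRDX1 was 0.02 without RANKL (95% interval -0.20 to 0.25) and 0.09 with RANKL (95% interval -0.13 to 0.31), neither past the threshold. The fall with RANKL in the presence of PRDX1 missed the threshold without PRDX1 + no RANKL replicate 2 or PRDX1 + RANKL replicate 1, with limma adjusted p-values of 0.0732 to 0.0873.

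TRAM carries TRIF to the internalised receptor. Its gene Ticam2 (NM_173394, chr18:46558231-46574533, minus strand) stood at 10.8 and 10.1 FPKM in the control libraries, 9.11 and 9.51 FPKM with PRDX1, 7.65 and 7.64 FPKM with RANKL, and 10.2 and 9.43 FPKM with both. The libraries with RANKL alone were below all others, and those with both agents overlapped with the control libraries and the PRDX1 libraries. RANKL alone lowered Ticam2 by 0.40 on the log2 scale (SE 0.070, limma adjusted p = 6.64e-04), whereas in the presence of PRDX1 the change with RANKL was 0.07 (95% interval -0.09 to 0.22). PRDX1 raised it in the presence of RANKL by 0.32 (SE 0.070, limma adjusted p = 0.00433), while the change without RANKL was -0.15 (95% interval -0.30 to 0.01). The interaction was 0.47 on the log2 scale (SE 0.099, limma adjusted p = 0.00738). None of these reached 1.5-fold.

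Both adaptors of the TRIF branch stood lower with RANKL alone. The effect of PRDX1 in the presence of RANKL was 0.32 for Ticam2 and 0.09 for Ticam1 on the log2 scale, a difference between genes that was not tested. The ratio of Ticam1 to Myd88 in FPKM was 0.189 and 0.191 in the control libraries and 0.184 and 0.214 with PRDX1 alone. It was 0.129 and 0.137 in the no PRDX1 + RANKL libraries and 0.133 and 0.153 with both agents. Myd88 made up 63.1% to 70.4% of the summed FPKM of the 4 adaptors over the 8 libraries. That sum was 65.7 to 75.8 FPKM. With Tirap at its shorter length, an alternative chosen after the data were seen, the share of Myd88 was 57.1% to 64.4% and the sum 73.7 to 83.2 FPKM.

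IRAK4 is the active kinase that starts the cascade in the MyD88 complex. Irak4 (NM_029926, chr15:94543660-94568316, plus strand) stood at 9.53 and 11.4 FPKM in the control group, 9.27 and 10.1 FPKM with PRDX1, 9.31 and 7.68 FPKM with RANKL, and 8.56 and 8.35 FPKM with both. Neighbouring groups overlapped in the order of their means. RANKL alone lowered Irak4 by 0.27 on the log2 scale (SE 0.103, limma adjusted p = 0.0415). That result missed the threshold when any of 5 libraries was left out (no PRDX1 + no RANKL replicate 2, PRDX1 + no RANKL replicate 2, no PRDX1 + RANKL replicate 2 or either PRDX1 + RANKL library), with limma adjusted p-values of 0.0501 to 0.285. It also missed it with no filter on low values, without the intensity trend, with the replicate block and in a fit of only the 2 groups compared, with limma adjusted p-values of 0.0521 to 0.105. The effect of PRDX1 on Irak4 was -0.10 without RANKL (95% interval -0.33 to 0.13) and -0.00 with it (95% interval -0.23 to 0.23).

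IRAK1 is phosphorylated by IRAK4 and hands the signal to TRAF6. Irak1 (NM_008363, chrX:74013918-74023921, minus strand), the most abundant of the 4 kinases, stood at 33.6 and 34.7 FPKM in the control libraries and 31.3 and 30.2 FPKM with PRDX1. It was 36.9 and 38.8 FPKM with RANKL alone and 35.5 and 35.2 FPKM with both agents. The groups did not overlap, and the libraries with RANKL were above those without. Irak1 rose with RANKL by 0.14 on the log2 scale without PRDX1 (SE 0.052, limma adjusted p = 0.0352) and by 0.20 with PRDX1 (SE 0.052, limma adjusted p = 0.0130), or 1.11-fold and 1.15-fold.

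The first of these rises in Irak1 missed the threshold when any library other than no PRDX1 + RANKL replicate 1 was left out, with limma adjusted p-values of 0.0510 to 0.159, and the second when PRDX1 + no RANKL replicate 2 or either PRDX1 + RANKL library was left out, with 0.0657 to 0.0893. The second also missed it under upper quartile scaling (limma adjusted p = 0.0514). The first also missed it under quantile or upper quartile scaling, without the intensity trend and in a fit of only the 2 groups compared, with limma adjusted p-values of 0.0608 to 0.280. The log2 difference of Irak1 with PRDX1 was -0.15 without RANKL (95% interval -0.26 to -0.03, limma adjusted p = 0.0584) and -0.10 with RANKL (95% interval -0.21 to 0.02), and neither passed the threshold.

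IRAK2 has a kinase domain with weak or no activity and sustains signaling by TRAF6 at later times. Irak2 (NM_001113553, chr6:113638467-113695027, plus strand) stood at 11.8 and 11.1 FPKM in the control libraries, 14.3 and 14.2 FPKM with PRDX1, 10.7 and 10.8 FPKM with RANKL, and 11.9 and 13.3 FPKM with both. The PRDX1 libraries were above those without PRDX1 in each setting, without overlap. PRDX1 raised Irak2 by 0.29 on the log2 scale without RANKL (SE 0.071, limma adjusted p = 0.0114) and by 0.21 with RANKL (SE 0.071, limma adjusted p = 0.0375), both under 1.5-fold, and the 2 effects differed by -0.09 (95% interval -0.31 to 0.14). The first missed the threshold without no PRDX1 + no RANKL replicate 2 or either PRDX1 + no RANKL library, with limma adjusted p-values of 0.0513 to 0.0751. The second missed it without either PRDX1 + no RANKL library, either no PRDX1 + RANKL library or PRDX1 + RANKL replicate 2, with limma adjusted p-values of 0.0547 to 0.289, and also with no filter on low values and in a fit of only the 2 groups compared, with 0.0587 to 0.0713. The log2 difference of Irak2 with RANKL was -0.08 without PRDX1 (95% interval -0.24 to 0.08) and -0.17 with PRDX1 (95% interval -0.33 to -0.01, limma adjusted p = 0.0867), and neither passed the threshold.

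IRAK3 lacks kinase activity and is known as a brake on signaling from Toll-like receptors. Irak3 (NM_001359184, chr10:120141648-120202130, minus strand) stood at 11.3 and 11.1 FPKM with no PRDX1 + no RANKL, 12.1 and 13.2 FPKM with PRDX1 + no RANKL, 7.96 and 8.50 FPKM with no PRDX1 + RANKL, and 14.2 and 13.6 FPKM with PRDX1 + RANKL. No groups overlapped. The libraries with RANKL alone were the lowest and those with both agents the highest, so that unlike Cd14 the group with both lay above the control libraries.

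PRDX1 raised Irak3 in the presence of RANKL by 0.69 on the log2 scale (SE 0.069, limma adjusted p = 2.96e-05), or 1.61-fold, a change larger than that of 92.3% of the genes tested. Without RANKL the change with PRDX1 was 0.16 (95% interval 0.01 to 0.31, limma adjusted p = 0.112). RANKL alone lowered Irak3 by 0.40 (SE 0.069, limma adjusted p = 6.16e-04), and with PRDX1 present the change with RANKL was 0.13 (95% interval -0.02 to 0.28). The PRDX1 effects with and without RANKL differed by 0.53 on the log2 scale (SE 0.097, limma adjusted p = 0.00355).

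The make-up of the 4 IRAK transcripts shifted while their sum stayed at 64.9 to 70.5 FPKM. Irak3 supplied 16.2% and 17.0% of that sum in the control libraries, 12.3% and 12.9% with RANKL alone and 19.3% and 20.2% with both agents. Irak1 supplied 56.9% and 58.9% with RANKL alone and 44.7% to 50.8% in the other libraries. The ratio of Irak3 to Irak1 in FPKM was 0.336 and 0.319 in the control libraries and 0.386 and 0.436 with PRDX1. It was 0.216 and 0.219 with RANKL alone and 0.399 and 0.386 with both agents.

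**Figure D3:**
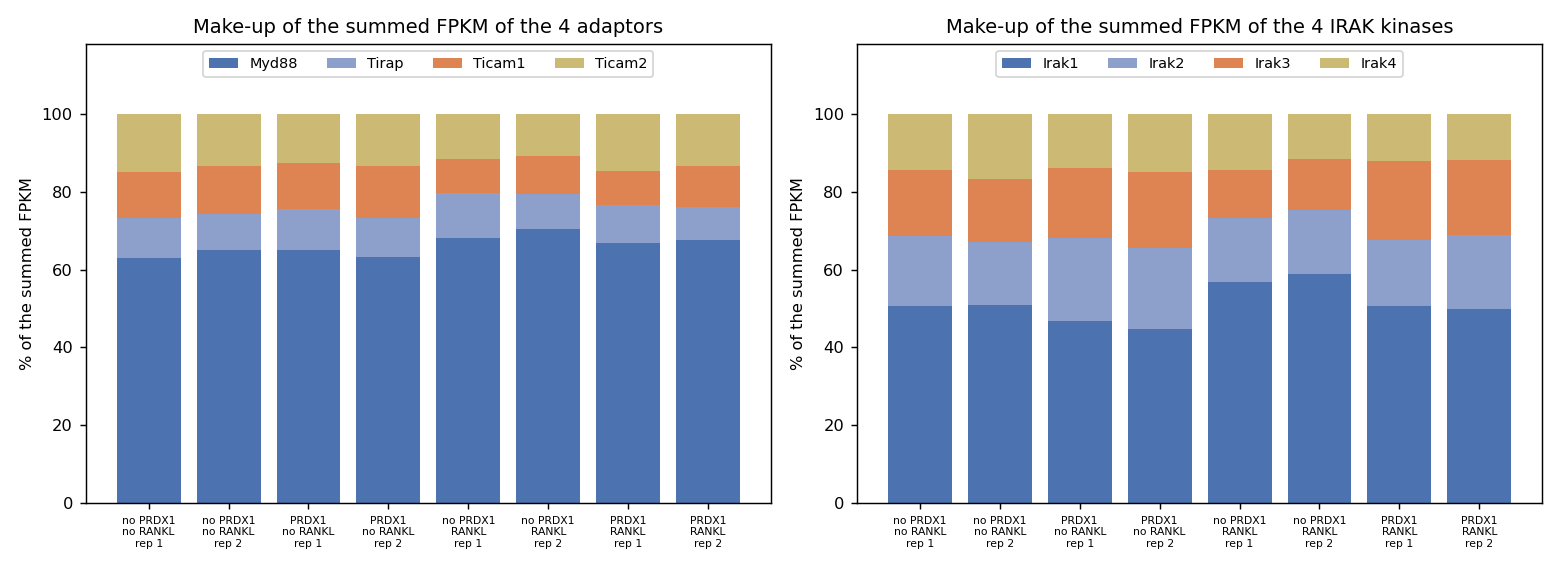
Share of each gene in the summed FPKM of the 4 adaptors (left) and of the 4 IRAK kinases (right), in percent, with 1 bar for each of the 8 libraries. Myd88 supplied 63.1% to 70.4% of the adaptor sum on the deposited lengths (57.1% to 64.4% with Tirap at its shorter length), and Irak3 supplied 12.3% and 12.9% of the IRAK sum in the no PRDX1 + RANKL libraries against 16.2% to 20.2% in the others.

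**Figure D4:**
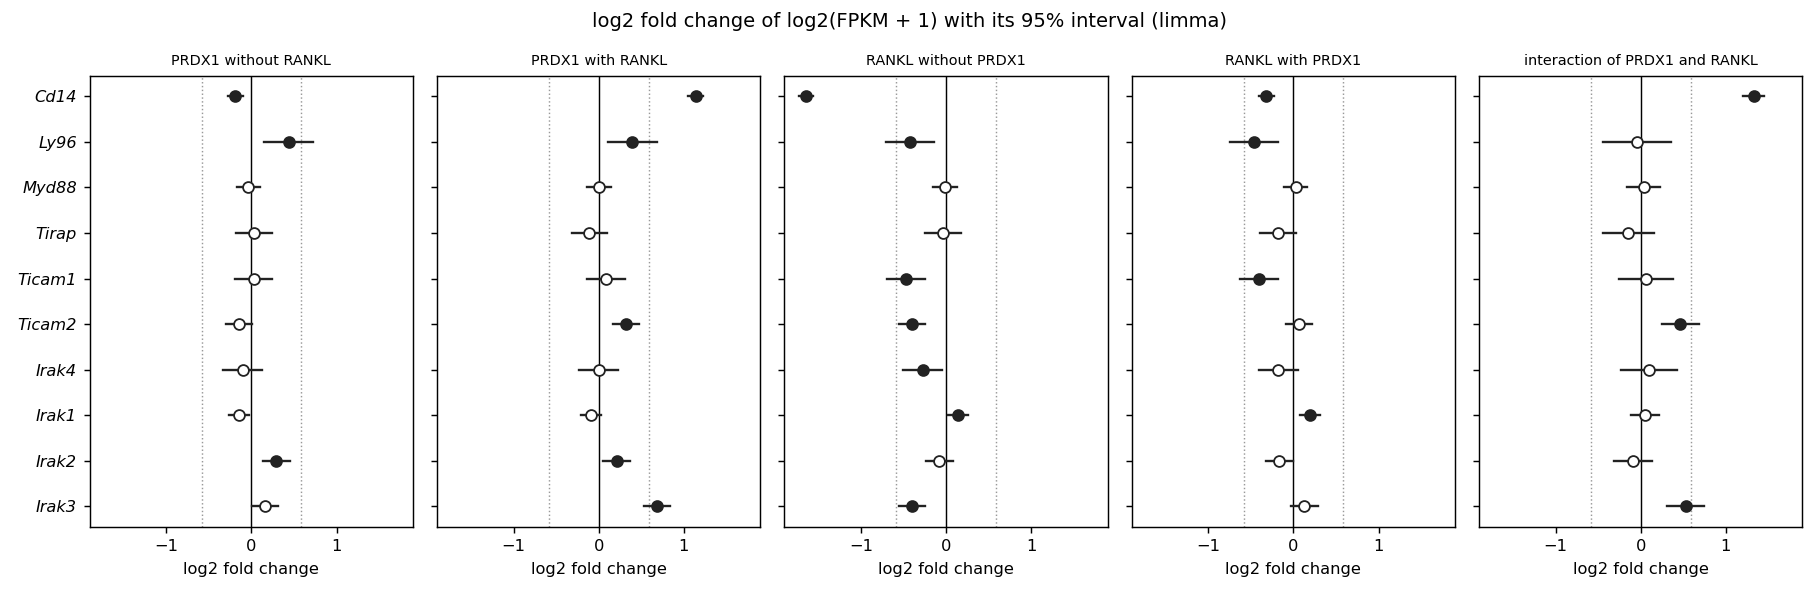
log2 fold change of each member on the log2(FPKM + 1) scale (horizontal axes) in the 4 comparisons and the interaction, with 95% intervals from limma. Filled points have an adjusted p under 0.05 and dotted lines mark 1.5-fold: only Cd14 and Irak3 lay beyond the lines with PRDX1 in the presence of RANKL, and only Cd14 with RANKL alone and in the interaction.

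Counted over the 10 members, PRDX1 without RANKL raised 2 (Ly96 and Irak2) and lowered 1 (Cd14) at the adjusted p in limma, where 12.2% of all tested genes rose and 17.6% fell, and it called none, against 3.8% of all genes called higher and 1.99% called lower. PRDX1 in the presence of RANKL raised 5 (Cd14, Irak3, Ly96, Ticam2 and Irak2) and lowered none, where 16.9% of all genes rose and 25.6% fell. It called 2 of them higher (Cd14 and Irak3), against 6.03% of all genes called higher and 4.17% called lower. The median log2 fold change of the members was 0.15 with PRDX1 in the presence of RANKL, beside -0.06 for all genes tested. Without RANKL the medians were -0.01 and -0.04. The counts of members past the adjusted p moved with single libraries. Those raised by PRDX1 without RANKL were 0 without no PRDX1 + no RANKL replicate 2 or either PRDX1 + no RANKL library, and those lowered were 2 (Cd14 and Irak1) without either no PRDX1 + RANKL library. Those raised in the presence of RANKL were 3 without no PRDX1 + RANKL replicate 2 or PRDX1 + RANKL replicate 2, and also with no filter on low values.

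RANKL without PRDX1 lowered 6 members (Cd14, Ticam1, Ly96, Ticam2, Irak3 and Irak4) and raised 1 (Irak1), where 22.9% of all genes fell and 37% rose, and it called 1 member lower (Cd14) and none higher, against 9.96% and 11.8% of all genes. RANKL in the presence of PRDX1 lowered 3 (Cd14, Ly96 and Ticam1) and raised 1 (Irak1), where 14.4% of all genes fell and 26.2% rose, and it called none, against 4.52% of all genes called higher and 3.98% called lower. The median log2 fold change of the members with RANKL was -0.34 without PRDX1 and -0.17 with it, beside 0.10 and 0.07 for all genes tested. Over all genes the balance of these calls turned with the scaling: RANKL without PRDX1 called 1383 higher and 1165 lower as reported, but 1088 and 1322 with quantile normalization and 1153 and 1302 with upper quartile scaling. RANKL with PRDX1 called 529 higher and 466 lower, but 457 and 563 with quantile normalization and 466 and 542 with upper quartile scaling. With 1 library left out, the members lowered by RANKL without PRDX1 were 4 to 6 (4 without no PRDX1 + RANKL replicate 2), those lowered in the presence of PRDX1 were 1 to 3 (1 without PRDX1 + no RANKL replicate 2), and those raised were 0 or 1 in both settings. The interaction passed the adjusted p for 3 members (Cd14, Irak3 and Ticam2), all positive, where it did so for 11.2% of all genes in that direction and 12% in the other, and called 1 (Cd14, positive), against 4.5% of all genes in that direction and 4.35% in the other. The comparisons share libraries, since each group enters 2 of them, so their values stand side by side and are not independent of each other.

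The calls in the lists of other genes and of markers given next stand beside the same shares of all genes. Those were 3.8% higher and 1.99% lower for PRDX1 without RANKL, 6.03% and 4.17% for PRDX1 with RANKL, 11.8% and 9.96% for RANKL without PRDX1, and 4.52% and 3.98% for RANKL with PRDX1.

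Among 9 genes for the receptor and for LPS handling, Tlr4 included, 8 were tested, and RANKL without PRDX1 called 4 of them lower. Beside Tlr4 these were Cd36, a scavenger receptor gene (log2 fold change -2.94), Ly86, which encodes the MD-1 partner of RP105 (-2.55), and Cd180, which encodes RP105 itself (-1.05). PRDX1 in the presence of RANKL called 2 of the 8 higher, Cd36 (1.61) and Ly86 (0.99), and without RANKL it called none. RANKL in the presence of PRDX1 called Cd36 (-1.70) and Ly86 (-1.30) lower.

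Of 18 tested genes that act after MyD88 and the IRAKs, such as Traf6 and Map3k7, PRDX1 called none in either setting. RANKL without PRDX1 called Ecsit higher (log2 fold change 0.74) and Peli2, a ubiquitin ligase for IRAKs, lower (-0.88), and RANKL with PRDX1 called none. Of 13 tested genes that act after TRIF, PRDX1 called 2 higher without RANKL, the interferon regulatory factor Irf7 (1.81) and Zbp1 (0.97), and 3 higher with RANKL, Irf7 (1.68), Zbp1 (1.46) and the kinase gene Ikbke (0.99). RANKL without PRDX1 called 3 of the 13 higher, Traf3 (1.43), Tank (1.17) and Ripk3 (0.94), and 1 lower, Ikbke (-0.73). RANKL with PRDX1 called Traf3 (1.28) and Ripk3 (0.77) higher. The lists group genes by name, and through which branch these changes came was not tested.

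Of 17 tested negative regulators of the pathway, PRDX1 without RANKL called 4 higher, namely Nfkbia, which encodes an inhibitor of NF-kB (log2 fold change 1.10), the ubiquitin-editing enzyme gene Tnfaip3 (0.98), Tnip1 (0.70) and Socs1 (0.64), and 1 lower, Il1rl1 (-1.49). With RANKL it called only Trim30a higher (0.77). Without PRDX1, RANKL called Nfkbia (2.74), Tnip1 (2.0), Tnfaip3 (1.32) and Socs1 (0.98) higher and Il1rl1 (-1.80) and Pik3ap1 (-0.92) lower. With PRDX1 it called Nfkbia (1.32), Tnip1 (1.17) and Nlrc3 (0.66) higher and Pik3ap1 (-0.69) lower.

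Of 12 tested receptors that also use MyD88 or TRIF, RANKL without PRDX1 called 4 lower, Tlr13 (log2 fold change -1.97), Tlr8 (-1.82), Tlr7 (-1.66) and Tlr1 (-0.79), and 1 higher, Il1rl2 (0.71). PRDX1 in the presence of RANKL called 4 of the 12 higher, Tlr8 (1.12), Tlr13 (1.05), Tlr7 (0.85) and Tlr2 (0.71), and without RANKL it called 1 higher, Il1rl2 (0.85), and 2 lower, Tlr5 (-0.99) and Il18rap (-0.60). RANKL in the presence of PRDX1 called 3 of the 12 higher, Tlr9 (0.89), Tlr2 (0.63) and Tlr5 (0.62), and 3 lower, Tlr13 (-0.95), Tlr8 (-0.94) and Tlr7 (-0.74).

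Each of 7 macrophage markers had its lowest group mean with RANKL alone, as had Cd14 and Tlr4. The summed FPKM of 7 markers (Adgre1, Csf1r, Cd68, Itgam, Lyz2, Fcgr1 and Mertk) was 15264 to 17017 in the control group, 16145 to 16602 with PRDX1, 9710 to 10132 with RANKL and 13101 to 13494 with both. Lyz2 supplied 85.7% to 88.0% of that sum in every library, so the sum is close to the level of 1 gene and the markers were also set singly against their control means. With RANKL alone Fcgr1 stood at 7.53% and Mertk at 21.1%, below the 31.8% of Cd14, while Csf1r, Lyz2, Adgre1, Itgam and Cd68 stood at 52.3% to 84.4%. With both agents 6 of the 7 were at 45.5% to 94.7% and Adgre1 was at 109%. With PRDX1 alone Adgre1, Fcgr1, Mertk and Cd68 rose in limma, all under 1.5-fold (117% to 144%), and the other 3 stood at 96.5% to 103%, where Cd14 was at 87.2% and 88.2% and Tlr4 at 89.0% and 93.0%. RANKL without PRDX1 called 5 of the 7 lower (all but Cd68 and Itgam), and PRDX1 in the presence of RANKL called 3 higher (Fcgr1, Mertk and Adgre1). The summed FPKM of 10 osteoclast markers ran the other way, at 44.8 to 45.4 in the control group, 88.1 to 92.4 with PRDX1, 1884 to 1987 with RANKL and 251 to 259 with both. The higher sum with PRDX1 alone rested on a few genes: Acp5 stood at 23.6 FPKM in the control group and 53.7 FPKM with PRDX1, and Atp6v0d2 at 6.99 and 22.8 FPKM. Of the 9 tested, PRDX1 without RANKL called 3 higher (Acp5, Atp6v0d2 and Dcstamp) and 1 lower (Itgb3, from 1.88 to 0.662 FPKM). RANKL without PRDX1 called all 9 higher, PRDX1 with RANKL called all 9 lower, and RANKL with PRDX1 called 7 higher. Of these 9, Oscar passed the filter on low values only through the libraries with RANKL alone (mean of 10.1 FPKM, against 0.337 FPKM with both agents). In bulk RNA, fewer cells of a type and less RNA per cell cannot be told apart, and the part of these shifts in the results on Cd14, Ticam2 and Irak3 was not tested.

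Markers of other cell types were low but not flat. The summed FPKM of 10 neutrophil markers was 8.47 to 12.9 in the control group, 39.9 to 44.8 with PRDX1, 16.8 to 18.3 with RANKL and 35.3 to 38.9 with both, so that the libraries with PRDX1 were the highest, as for Irak2. Most of that sum came from S100a8 (3.15 to 17.97 FPKM over the 8 libraries) and S100a9 (3.55 to 21.5 FPKM). The defining genes were low but mostly above 0: Ly6g reached 0.279 FPKM, Camp 0.621 FPKM and Mpo 1.74 FPKM at most, and Ly6g and Camp were listed at 0 in 1 library, no PRDX1 + RANKL replicate 1. Of the 6 neutrophil markers tested, PRDX1 without RANKL called 4 higher, S100a9 (log2 fold change 1.96), S100a8 (1.85), Elane (0.83) and Mpo (0.63), and with RANKL it called 3 higher, S100a9 (1.18), S100a8 (0.90) and Mpo (0.74). Elane passed the filter on low values only through the PRDX1 libraries. Its group means were 1.33 and 0.85 FPKM with PRDX1, against 0.32 and 0.33 FPKM without it, so its place among the 6 came from that difference. Stromal markers (6 genes) summed to 7.57 to 10.5 FPKM in the 4 libraries without PRDX1 and to 15.8 to 19.4 FPKM in the 4 with it, and 6 dendritic cell markers summed to 5.96 to 10.3 FPKM without PRDX1 and to 15.5 to 19.6 FPKM with it. Both sums rested on few genes: Col1a1 and Col1a2 supplied 83.4% to 88.7% of the stromal sum, and Itgax supplied 79.7% to 89.3% of the dendritic sum, in which Flt3, Zbtb46, Xcr1 and Clec9a reached at most 0.629 FPKM. In both settings PRDX1 called 2 of the 4 stromal markers tested higher (Col1a1 and Col1a2) and both dendritic markers tested (Itgax and Ccr7, of 6 listed). Ccr7 owed its pass of the filter on low values to the PRDX1 libraries (means of 0.997 and 2.34 FPKM, against 0.06 and 0.68 FPKM without PRDX1). RANKL without PRDX1 called 1 of the 2 dendritic and 1 of the 6 neutrophil markers tested higher, and RANKL with PRDX1 called 1 dendritic marker higher. The part of these cell types in the rise of Ly96 and Irak2 was not tested. None of the T cell, B cell, NK cell and erythroid markers passed the filter on low values. Among these, the 5 B cell markers summed to 0.589 to 0.976 FPKM in the libraries without PRDX1 and to 1.37 to 2.13 FPKM in those with it, a difference that was not tested.

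For the 3 members with the widest changes, the genes with the most similar pattern were found by Pearson's r of log2(FPKM + 1) over the 8 libraries, which share the 4 treatments. Those nearest to Cd14 were Snx30 (r = 0.994), the complement receptor gene C5ar1 (r = 0.994) and Rab33b (r = 0.993). C5ar1 had mean levels of 142 FPKM in the control group, 123 FPKM with PRDX1, 49.2 FPKM with RANKL and 94.2 FPKM with both. Those nearest to Irak3 were Aoah, whose product deacylates LPS (r = 0.989), Arl5c (r = 0.980) and Atp10a (r = 0.974). Aoah had mean levels of 5.85, 8.08, 2.82 and 10.2 FPKM in the same order of groups, so that it too was highest with both agents. Those nearest to Ticam1 were Rgs12, Trim47 and Dlgap4 (r = 0.979 each).

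Reads were counted without regard to strand, so overlapping transcripts bear on some members. In the GENCODE M21 annotation, the neighbour Tmed7 has an isoform that shares 838 bases, or 25.7%, of the exons of Ticam2 on the same strand, although the deposited entries of the 2 genes do not overlap. Tmed7 had mean levels of 66.0, 60.03, 56.5 and 55.7 FPKM in the groups in the order above, and its change with PRDX1 in the presence of RANKL was -0.02 on the log2 scale, where Ticam2 rose by 0.32. With RANKL alone Tmed7 fell by 0.22 (limma adjusted p = 0.00478), where Ticam2 fell by 0.40. Acaa1a shares 223 bases, or 11.5%, of the exons of Myd88 on the other strand, and it rose with RANKL alone by 0.65 (limma adjusted p = 2.19e-06), where the change of Myd88 was -0.01. Tmbim4 shares 122 bases, or 4.25%, of the exons of Irak3 on the other strand, and its change with PRDX1 in the presence of RANKL was 0.06, where Irak3 rose by 0.69. Tmbim4 had mean levels of 67.7, 69.4, 57.4 and 59.8 FPKM in the same order of groups, and with RANKL alone it fell by 0.23 (limma adjusted p = 0.00104), where Irak3 fell by 0.40. The part of shared reads in the falls of Ticam2 and Irak3 and in the steady level of Myd88 was not tested. An antisense gene shares 446 bases, or 19.5%, of the exons of Tirap. Irak2 shares 196 bases, or 6.59%, with Gm43963 on the other strand, and Irak3 shares 28 bases, or 0.976%, with a further antisense gene. Irak1 shares 67 bases with Mir718, which was listed at 0 in all libraries, and 6 bases with Mir5132. Of Cd14, Ly96, Ticam1 and Irak4 no exon base was shared with another gene.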

How the data were processed

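RNA of the 8 samples was sequenced as paired reads of 100 bases. Per the file headers and the submitters' processing notes, the authors aligned to mm10, counted reads on RefSeq exons on both strands with HOMER, kept 1 transcript for each gene and deposited FPKM per library. HISAT2, HOMER and DESeq2 were named there without versions. All 25124 gene entries and the 8 columns of the libraries were used, and 0 columns of values per sample were left unused. The trailing columns held only leftover annotation text.

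Groups came from the sample titles. Multiplying FPKM by transcript length and library total gave whole reads within 0.1 for 100% of the values checked, from which depth was taken. The libraries of a group differed by more than sampling noise (chi-square per degree of freedom of 4.59 to 9.19), so none was merged. Genes with a mean of at least 0.5 FPKM (11700) were tested on log2(FPKM + 1) with limma 3.58.1 (R 4.3.3), with 1 term for each of the 4 groups, an intensity trend and 4 residual degrees of freedom before moderation. P-values were adjusted by Benjamini-Hochberg for each comparison, and calls needed an adjusted p under 0.05 and a fold of at least 1.5, the thresholds of the study. The fit was also run on simulated counts with the same spread for every gene and changes in the PRDX1 + no RANKL group alone. That is a simpler setting than these data. Intervals are 95%.

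The 10 members were all named. Of each pathway list, up to 3 called genes with the widest changes were named for each comparison, and for the 3 members with the widest changes the 3 most similar genes. Further genes named in counts of 5 or fewer were chosen after their values were seen. Members, lists and motifs were chosen with earlier results of these data known. Alternatives were another pseudocount, other filters and scalings, no intensity trend, the replicate block, recovered reads with voom, only the 2 groups compared, and each library left out. Promoter letters came from RefSeq (GRCm38.p6) and exon overlaps from GENCODE M21 (GRCm38). Protein sequences were not used here.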

Additional observations from a re-analysis of the deposited data

Results flagged for a closer look

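For 3 of the 10 members PRDX1 acted differently in the presence of RANKL than in its absence, as tested by the interaction in limma over all 11700 genes. For Cd14 the difference was 1.33 on the log2 scale (SE 0.055, adjusted p = 3.46e-07): the PRDX1 effect was 1.14 with RANKL and -0.19 without. For Irak3 the difference was 0.53 (SE 0.097, limma adjusted p = 0.00355), with effects of 0.69 and 0.16. For Ticam2 it was 0.47 (SE 0.099, limma adjusted p = 0.00738), with effects of 0.32 and -0.15. Over all genes tested, 11.2% passed this interaction in the same direction and 12% in the other. In all 3 the libraries with RANKL alone were the lowest of the 8. The interaction was also called in lists of other genes, beside 4.5% of all genes positive and 4.35% negative. It was positive for 5 of 12 other receptors, 2 of 8 receptor and LPS-handling genes and 2 of 7 macrophage markers, with 0 negative. Among 13 genes after TRIF 1 was positive and 1 negative, and among 17 negative regulators 1 and 3. The called osteoclast (9 of 9) and neutrophil (2 of 6) markers were negative. Groups of 2 libraries are too small to look for samples that stand apart.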

How the results depend on the processing

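Under 17 alternatives, the 4 called results on members (Cd14 and Irak3 with PRDX1 in the presence of RANKL, Cd14 with RANKL alone, and Cd14 in the interaction) kept direction and call in all 67 values. Counts of called members moved only when 1 library was left out: members called higher by PRDX1 without RANKL were 0 to 1 (Ly96 at 0.62 without no PRDX1 + no RANKL replicate 1), members called lower by RANKL without PRDX1 were 1 to 2 (Ly96 at -0.61 or -0.59 when no PRDX1 + no RANKL replicate 2 or no PRDX1 + RANKL replicate 1 was left out), and members called higher in the interaction were 1 to 2 (Irak3 at 0.59 without PRDX1 + no RANKL replicate 2). All genes called lower by PRDX1 without RANKL were 233, but 360 with log2(FPKM + 0.1) and 397 with voom on recovered reads, and the cause was not tested. With the replicate block, those counts were 232 lower and 444 higher, and of the members only the fall of Irak4 with RANKL alone missed the threshold (adjusted p = 0.0521 in limma). Samples with the same number correlated by 0.00847 to 0.0965 in their deviations from the group means, which does not settle whether they were paired.

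Signs turned for 35 values, none past the adjusted p. With upper quartile scaling they were 0.00169 (Myd88, PRDX1 without RANKL), 0.0428 (Irak4, PRDX1 with RANKL) and -0.0287 (Myd88, RANKL with PRDX1). With quantile normalization they were 0.0323 (Irak4, PRDX1 with RANKL), -0.0303 (Myd88, RANKL with PRDX1) and -0.00866 (Ticam2, RANKL with PRDX1). With voom they were -0.0066 (Myd88) and 0.00841 (Irak4) for PRDX1 with RANKL and 0.00531 (Myd88) for RANKL without PRDX1. With 1 library left out, PRDX1 without RANKL gave -0.0910 to 0.0207 for Myd88, -0.0140 to 0.0848 for Tirap, -0.0483 to 0.0977 for Ticam1 and -0.221 to 0.0205 for Irak4. PRDX1 with RANKL gave -0.0689 to 0.0714 for Myd88, -0.223 to 0.00583 for Tirap, -0.00958 to 0.190 for Ticam1 and -0.126 to 0.123 for Irak4. RANKL without PRDX1 gave -0.0814 to 0.0590 for Myd88 and -0.151 to 0.0774 for Tirap, and RANKL with PRDX1 gave -0.00190 to 0.0522 for Myd88. The interaction gave -0.226 to 0.144 for Ly96, -0.0338 to 0.107 for Myd88, -0.0343 to 0.165 for Ticam1 and -0.0255 to 0.223 for Irak4.

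With 2 libraries a group the results rest on 4 residual degrees of freedom and on moderation over all genes, and FPKM keep no strand. Where 1 library of a group is left out, the lone library is assumed to vary like the others. Results on Ly96, Irak4, Irak1 and Irak2 that passed the threshold lay near it and were lost under some alternatives, as was the fall of Ticam1 with RANKL in the presence of PRDX1. Of the member results that missed the threshold, 2 passed it under some alternatives: the negative change of Irak1 with PRDX1 in the absence of RANKL under 4 of 17 (lowest limma adjusted p = 0.0371), and that of Irak2 with RANKL in the presence of PRDX1 under quantile normalization (0.0238) and upper quartile scaling (0.0368).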
